A study of Mus musculus with 6 samples.

Results

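The genes described here encode 9 receptor chains for interleukins, namely Il2ra, Il2rb, Il4ra, Il7r, Il9r, Il15ra and Il21r, whose products pair with the common gamma chain, and Il10ra and Il10rb, which form the interleukin-10 receptor. They were taken as a list of names from a total of 22180 genes with a probe set annotated to exactly 1 gene symbol, and all 9 were measured, each by 1 probe set. RNA came from CD8+ T cells of C57BL/6 mice, purified from peripheral lymph nodes and spleen with a magnetic kit, and was read on 6 whole-transcript arrays, 3 of cells labelled Dot1l knockout and 3 of cells labelled wild type. Dot1l flox/flox mice had been crossed with mice carrying Cre driven by the Cd4 promoter, on during thymic development, also in cells of the future CD8+ lineage. The labels do not say whether the wild type mice carried a floxed allele or Cre, give no age, and name no animal for any array. Spread between arrays, and every p-value built on it, may therefore be technical only.

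Dot1l methylates lysine 79 of histone H3, and the comparison asks how receptor transcripts differ in T cells lacking it. Its own probe set read 7.31, 7.26 and 7.33 in knockout-labelled arrays, against 7.46, 6.96 and 7.18 in wild type arrays (log2 difference 0.10, SE 0.13, limma with Benjamini-Hochberg adjusted p = 0.765). Which exon the Cre removes is not stated in the labels, and a probe outside it would check nothing, so every direction here is that of the labels. The cells carried CD8 markers, with Cd8a at 10.9 ± 0.07 in knockout-labelled arrays, against 11.1 ± 0.12 in wild type arrays (SD, n = 3 each), while Cd4 lay at 3.86 ± 0.08 and 3.79 ± 0.22, close to a background guide of 3.83. That guide is the 95th percentile of the mean levels of 1394 olfactory and vomeronasal receptor genes. Of 8 measured CD8 T cell markers 0 rose and 1 fell (1 and 1 at an unadjusted p under 0.05). The one that fell was Cd5, a surface regulator of T cell receptor signalling, at 8.65 ± 0.06 in knockout-labelled arrays, against 9.66 ± 0.02 in wild type arrays (log2 difference -1.01, SE 0.10, limma adjusted p = 0.000376). In bulk samples, fewer cells of a type and less RNA per cell cannot be told apart.

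Receptors of the common gamma family bind a cytokine through a private chain and signal through a chain that several of them share, with Janus kinases bound to their tails and STAT factors as messengers. Interleukin-7 keeps naive T cells alive, interleukin-15 sustains memory CD8 T cells, and interleukin-2 drives expansion of activated T cells. The interleukin-10 receptor belongs to the relatives of the interferon receptors, uses Jak1 and Tyk2, signals chiefly through Stat3, and is known for restraining inflammation. The gene of the common gamma chain itself, Il2rg, is not analysed here, because no probe set with its single symbol was available.

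Of the 9 receptor genes, 4 rose in knockout-labelled arrays, 0 fell and 5 did not pass (limma, adjusted p under 0.05 over all 22180 genes). Those that rose were both chains of the interleukin-10 receptor, Il10ra and Il10rb, and the alpha and beta chains of the interleukin-2 receptor, Il2ra and Il2rb. Over all genes tested 5.50% passed, 4.30% as higher and 1.20% as lower. At an unadjusted p under 0.05 the receptor genes had 6 higher and 0 lower, where all genes had 11.2% higher and 6.83% lower. The median log2 difference was 0.38 over the 9 receptor genes and -0.01 over all genes tested. Values of the 2 groups did not overlap for 8 receptor genes, 7 of them higher and 1 lower in knockout-labelled arrays, against 23.5% of all genes, 13.7% higher and 9.78% lower. With 1 knockout-labelled array left out, whichever it was, 2 of the 9 passed, Il10ra and Il10rb.

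**Figure D1:**
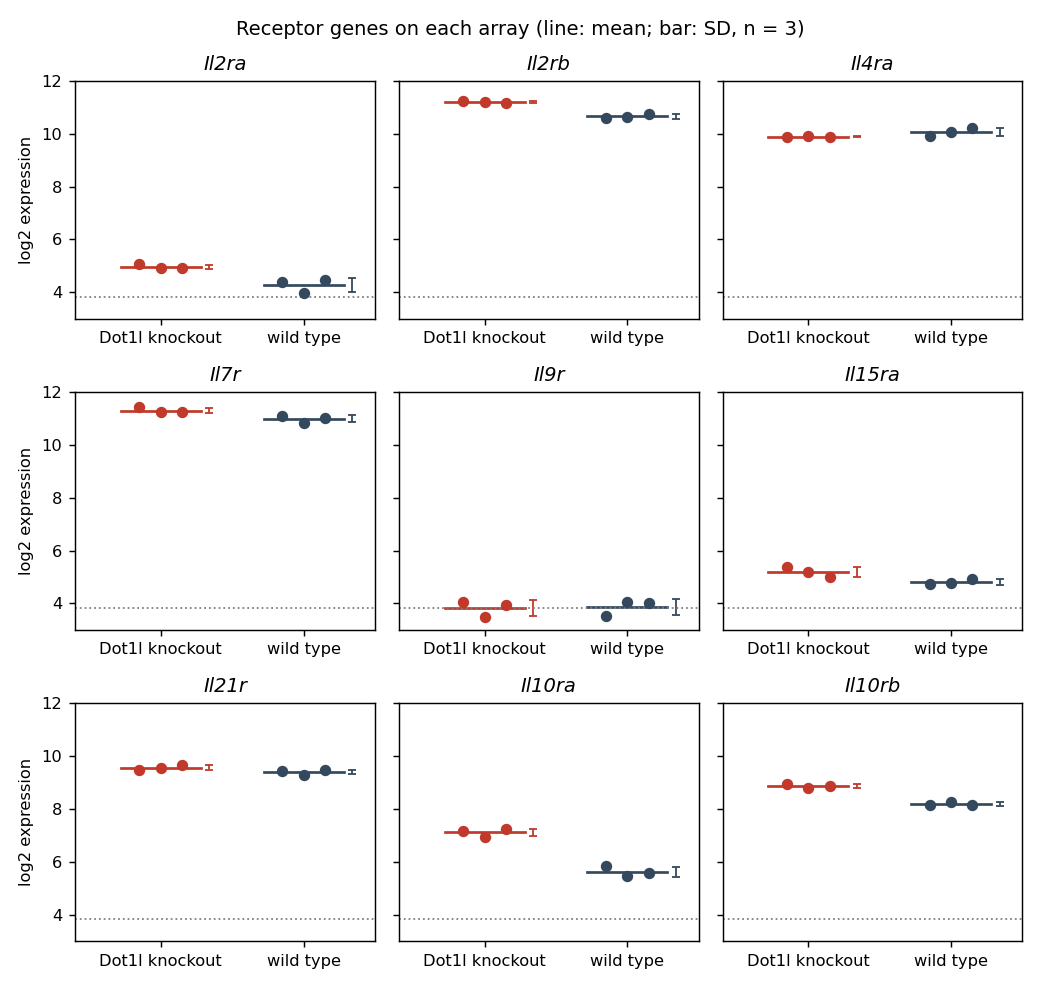
Log2 expression of each of the 9 receptor genes on every array, with 3 Dot1l knockout-labelled arrays (red, left) and 3 wild type arrays (dark, right) per panel. Lines are means, bars are SD, and the dotted line is the background guide of 3.83. The knockout-labelled points lie above all wild type points for Il10ra, Il10rb, Il2ra, Il2rb, Il7r, Il15ra and Il21r.

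Il10ra, the chain that binds interleukin-10, had the largest difference among the 9 genes. It read 7.16, 6.95 and 7.22 in knockout-labelled arrays, against 5.83, 5.45 and 5.59 in wild type arrays. Every knockout-labelled array was thus above every wild type array, by more than the spread within either group. Its level was 7.11 ± 0.15 against 5.62 ± 0.19 (SD, n = 3 each), a log2 difference of 1.49 (SE 0.13, 95% interval 1.20 to 1.78, limma adjusted p = 0.000232) or a fold of 2.81. It was the 99th largest rise among the 22180 genes. With any array left out, the difference stayed between 1.40 and 1.59 and the adjusted p between 0.000471 and 0.00228.

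Il10rb, the accessory chain, which also serves the receptors of interleukin-22 and of the lambda interferons, read 8.93, 8.81 and 8.86 in knockout-labelled arrays, against 8.14, 8.26 and 8.15 in wild type arrays. The groups were far apart relative to their SDs of 0.06 and 0.07. The log2 difference was 0.68 (SE 0.10, 95% interval 0.46 to 0.90, limma adjusted p = 0.0039), a fold of 1.60. It passed with each array left out (adjusted p between 0.00638 and 0.0235). The intervals of Il10ra and Il10rb do not overlap, although no test of that gap between the genes was made, and differences of separate probe sets need not be on the same scale.

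B cells and myeloid cells also carry the interleukin-10 receptor, and some of their markers were higher in the same arrays. Of 9 measured B cell markers 3 rose and 0 fell (3 and 0 at an unadjusted p under 0.05), among them Cd22 by 1.29 (SE 0.16), Ms4a1 by 1.13 (SE 0.14) and Cd79a by 0.86 (SE 0.21). The summed linear level of the list was 283 to 334 in knockout-labelled arrays, against 196 to 229 in wild type arrays. The B lineage factors Pax5 and Ebf1 were below the background guide in both groups. Ms4a1 was below it in wild type arrays (mean 3.24), so the size of its rise is uncertain. Cd79a passed only without wild type replicate 3 when an array was left out (adjusted p = 0.0127, against 0.0511 to 0.165 in the other fits). Of 10 monocyte, macrophage and neutrophil markers 2 rose, Mpeg1 by 1.32 (SE 0.18) and Itgam by 0.60 (SE 0.12), and 0 fell. At an unadjusted p under 0.05 the counts were 2 higher and 2 lower, and the list median was -0.07. The 2 lower were Adgre1 (-0.60, SE 0.19, limma adjusted p = 0.115) and Csf1r (-0.40, SE 0.16, limma adjusted p = 0.23). Adgre1 lay under the background guide in both groups. Mpeg1 lay under it in wild type arrays (mean 3.67), so the size of its rise is uncertain. Summed levels of this list were 153 to 179 in knockout-labelled arrays, against 140 to 157 in wild type arrays. Itgam lost its call without knockout replicate 1 or 2 and without wild type replicate 1 or 3 (adjusted p = 0.0906, 0.0732, 0.0637 and 0.0816). Of 8 dendritic cell markers 2 rose, Itgax by 1.14 (SE 0.16) and H2-Aa by 1.21 (SE 0.21), and 0 fell. At an unadjusted p under 0.05 the counts were 3 higher and 1 lower. H2-Ab1 differed by 1.09 (SE 0.31, limma adjusted p = 0.0875) and Cd209a by -0.37 (SE 0.14, limma adjusted p = 0.192). The sums were 417 to 469 in knockout-labelled arrays, against 340 to 455 in wild type arrays. Cd209a, at 7.73 and 8.10, was the brightest of the list and weighs most in them. H2-Aa lost its call when knockout replicate 1 or 3 was left out (adjusted p = 0.0515 and 0.0533). The part of these cells in the rise of Il10ra and Il10rb was not tested.

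Il2rb encodes the signalling beta chain shared by the receptors for interleukin-2 and interleukin-15, and its surface protein is a marker of memory CD8 T cells. It read 11.24, 11.21 and 11.18 in knockout-labelled arrays, against 10.59, 10.64 and 10.77 in wild type arrays. The knockout-labelled values were nearly equal to each other and all lay above the wild type values. The log2 difference was 0.55 (SE 0.10, 95% interval 0.32 to 0.77, limma adjusted p = 0.0122), a fold of 1.46. Without knockout replicate 1, 2 or 3 the adjusted p was 0.0561, 0.0552 and 0.0535, with differences between 0.53 and 0.56.

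Il2ra encodes the alpha chain CD25, which raises the affinity of the receptor for interleukin-2 and appears on activated and regulatory T cells. It read 5.06, 4.92 and 4.93 in knockout-labelled arrays, against 4.39, 3.98 and 4.47 in wild type arrays. Wild type replicate 2 was the lowest of the 6 and lay close to the background guide. The log2 difference was 0.69 (SE 0.14, 95% interval 0.38 to 1.0, limma adjusted p = 0.0194), a fold of 1.61. It was 0.54 without wild type replicate 2 (adjusted p = 0.024), and the adjusted p was 0.0837, 0.0621 and 0.0707 without knockout replicate 1, 2 or 3. After another quantile normalization the difference was 0.54 (adjusted p = 0.0559).

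Il2ra is also well known among markers of CD4 helper and regulatory T cells, and other such markers were followed as a list. Of 8 measured, 1 rose and 1 fell (1 and 2 at an unadjusted p under 0.05), with a median of -0.12. Foxp3, the defining factor of regulatory T cells, read 4.83 ± 0.07 in knockout-labelled arrays, against 5.09 ± 0.41 in wild type arrays (adjusted p = 0.54), and Ctla4 differed by -0.54 (adjusted p = 0.0752). Ikzf2, a zinc finger factor found in regulatory and some activated T cells, rose by 1.16 (SE 0.12). Cd40lg, the helper cell ligand of CD40, fell by 0.88 to a level under the background guide. Its wild type mean of 3.93 was itself close to the guide, so the size of this fall is uncertain. The summed level of the list was 520 to 580 in knockout-labelled arrays, against 445 to 545 in wild type arrays. That sum is mostly Ikzf2 and Ctla4, the brightest of the list, which differed in opposite directions. It says little about the other markers. The part of these cells in the rise of Il2ra was not tested.

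Natural killer cells carry Il2rb as well. Of their 6 measured markers 1 rose, Tyrobp, an adaptor of activating receptors (0.43, SE 0.10, adjusted p = 0.0344), and it passed in 0 of the 6 fits with an array left out (limma adjusted p = 0.0627 to 0.135). No marker of that list fell, and at an unadjusted p under 0.05 the counts were 3 higher and 0 lower. Ncr1 differed by 0.44 (limma adjusted p = 0.0719) and Klrb1c by 0.90 (limma adjusted p = 0.151), and the list median was 0.37. The list summed to 661 to 822 in knockout-labelled arrays, against 704 to 870 in wild type arrays. That sum is mostly Klrd1, by far the brightest of the list, at 9.16 in knockout-labelled arrays, against 9.38 in wild type arrays. Its difference was -0.22 (SE 0.14, limma adjusted p = 0.455), so the sum says little about the other markers. The part of natural killer cells in the rise of Il2rb was not tested.

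**Figure D2:**
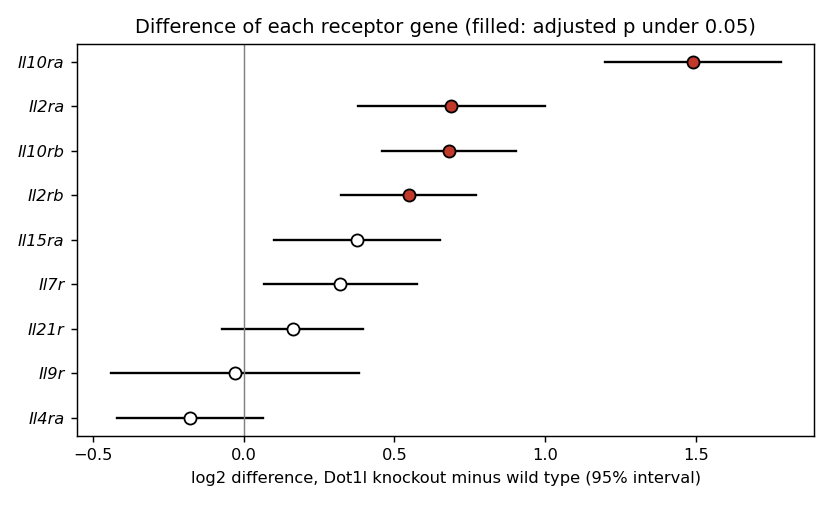
Log2 difference, Dot1l knockout-labelled minus wild type arrays, for each of the 9 receptor genes, with 95% intervals from limma (n = 3 arrays each). Filled points passed at an adjusted p under 0.05, and they run from 0.55 for Il2rb to 1.49 for Il10ra.

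Il7r, the private chain for interleukin-7 and a mark of resting naive and memory T cells, did not pass. It read 11.43, 11.25 and 11.24 in knockout-labelled arrays, against 11.09, 10.84 and 11.03 in wild type arrays. The groups did not overlap, but the log2 difference of 0.32 (SE 0.11, 95% interval 0.07 to 0.57) had a limma adjusted p of 0.16. With trend and robust fitting it passed (adjusted p = 0.0282), which was 1 of 15 refits made at that threshold without the covariate. In the others it did not pass, and with an array left out the limma adjusted p was 0.144 to 0.398.

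Il15ra encodes the alpha chain that presents interleukin-15 to neighbouring cells, and it lies next to Il2ra in the order of protein-coding genes on chromosome 2. It read 5.37, 5.2 and 5.0 in knockout-labelled arrays, against 4.73, 4.78 and 4.94 in wild type arrays. Knockout replicate 3 and wild type replicate 3 almost met. The log2 difference of 0.38 (SE 0.12, 95% interval 0.10 to 0.65, limma adjusted p = 0.132) did not pass and was 0.18 after another quantile normalization.

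Il21r, the receptor of the helper cell cytokine interleukin-21, read 9.49, 9.54 and 9.66 in knockout-labelled arrays, against 9.45, 9.29 and 9.46 in wild type arrays. The groups were separated by a small gap, and the log2 difference was 0.16 (SE 0.10, 95% interval -0.07 to 0.40, limma adjusted p = 0.474). Il4ra, the alpha chain for interleukin-4 and interleukin-13, was the only receptor gene of the 9 whose knockout-labelled values all lay below the wild type values. It read 9.88, 9.91 and 9.88 in knockout-labelled arrays, against 9.93, 10.05 and 10.22 in wild type arrays (log2 difference -0.18, SE 0.11, 95% interval -0.42 to 0.07, limma adjusted p = 0.447). The gap between the nearest values was small, and the difference was -0.10 without wild type replicate 3. Il9r, the receptor of the mast cell and helper cell cytokine interleukin-9, sat at the background guide, with 4.05, 3.49 and 3.96 in knockout-labelled arrays, against 3.52, 4.04 and 4.01 in wild type arrays (log2 difference -0.03, SE 0.18, 95% interval -0.44 to 0.38). These values overlap fully, and a level near background bounds what the probe set can show.

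**Figure D3:**
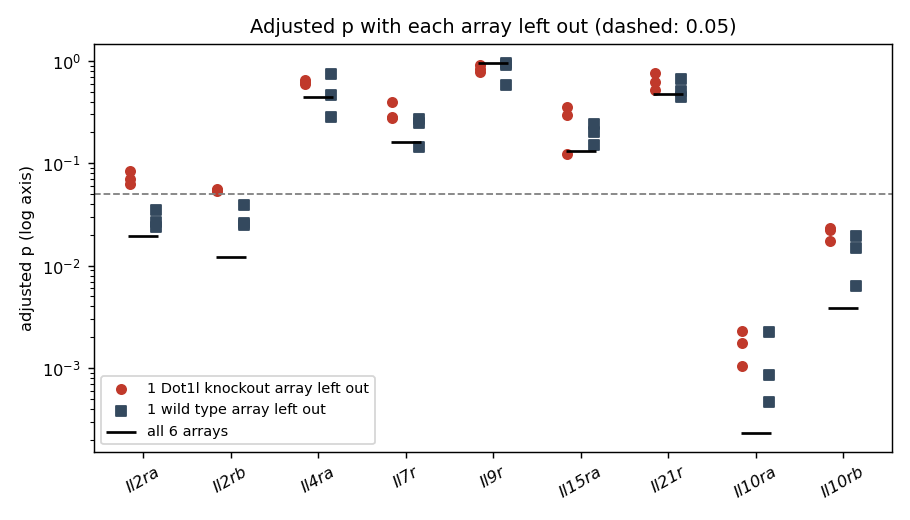
Limma adjusted p (log axis) of each of the 9 receptor genes with all 6 arrays (black dash), with 1 knockout-labelled array left out (red circles) and with 1 wild type array left out (dark squares). The dashed line is 0.05. Il10ra and Il10rb stay under it in all 6 such fits, whereas Il2ra and Il2rb cross it whenever a knockout-labelled array is left out.

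Several of the 9 genes stand side by side in the genome, in the order of protein-coding genes in RefSeq. Il2ra adjoins Il15ra on chromosome 2, Il4ra adjoins Il21r on chromosome 7, and Il10rb lies between Ifnar2 and Ifnar1, the chains of the type I interferon receptor, on chromosome 16. Ifnar2 rose by 0.45 (SE 0.11, adjusted p = 0.0429) and Ifnar1 differed by -0.02 (SE 0.10) beside the 0.68 of Il10rb. When an array was left out, Ifnar2 passed only without wild type replicate 2 (adjusted p = 0.0196, against 0.104 to 0.146 in the other fits), and its call ended after a further quantile normalization and after median centring (0.0614 and 0.0915). Rbm17 on the other side of Il2ra differed by 0.0036 (SE 0.098). Of the 14 coding genes that flank the 9 without being among them, 2 rose and 0 fell (limma, 4 and 1 at an unadjusted p under 0.05, against 11.2% and 6.83% of all genes). Beside Ifnar2 this was Spef2, the neighbour of Il7r (0.49, SE 0.10, adjusted p = 0.0192), which lost its call without knockout replicate 1, 2 or 3 or wild type replicate 3 (0.0534 to 0.0865) and after another quantile normalization (0.0728).

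Promoter sequences of 6 of the 9 genes were available from RefSeq (build GRCm38.p6, 250 bases before to 50 after the annotated start). No window was available for Il2rb, Il10ra and Il10rb, which also rose, so no motif was searched in them. Il2ra is shown because it rose, and Il7r and Il21r because they hold a match to a motif searched. The motifs were TTCNNNGAA, the palindrome bound by STAT factors, GTAAACA, the forkhead core that Foxo1 binds, and AGGTGTGA, the T-box element that Eomes and Tbx21 bind, each on both strands, with matches in capitals. Each sequence reads 5′ to 3′ along the strand of its gene.
Il2ra, chr2:11642542-11642841, strand +: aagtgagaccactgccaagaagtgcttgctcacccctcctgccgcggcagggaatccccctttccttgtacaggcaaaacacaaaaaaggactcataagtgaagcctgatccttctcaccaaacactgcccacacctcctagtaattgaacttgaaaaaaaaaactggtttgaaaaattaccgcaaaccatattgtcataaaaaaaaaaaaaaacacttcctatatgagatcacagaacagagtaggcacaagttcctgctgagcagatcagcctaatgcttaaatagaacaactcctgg
Il7r, chr15:9529827-9530126, strand -: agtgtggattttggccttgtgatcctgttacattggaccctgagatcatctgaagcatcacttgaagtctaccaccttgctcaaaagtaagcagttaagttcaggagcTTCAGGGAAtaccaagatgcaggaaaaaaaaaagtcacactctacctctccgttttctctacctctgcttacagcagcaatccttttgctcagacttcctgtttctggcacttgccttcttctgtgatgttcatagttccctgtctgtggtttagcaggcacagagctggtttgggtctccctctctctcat
Il21r, chr7:125603179-125603478, strand +: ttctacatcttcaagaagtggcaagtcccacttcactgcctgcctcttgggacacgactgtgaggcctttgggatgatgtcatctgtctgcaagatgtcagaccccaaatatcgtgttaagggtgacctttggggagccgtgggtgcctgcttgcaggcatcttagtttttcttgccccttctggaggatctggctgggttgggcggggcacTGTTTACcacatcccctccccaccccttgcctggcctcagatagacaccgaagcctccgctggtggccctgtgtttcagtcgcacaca
The Il7r window held 1 STAT match, beginning 142 bases before the start, and the Il21r window held 1 forkhead match, beginning 38 bases before it. No match to these letters was found in the windows of Il2ra, Il4ra, Il9r and Il15ra. Of 32851 promoter windows of that length, 8.30% held the STAT letters, 3.65% the forkhead letters and 1.28% the T-box letters.

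Transcription factors known to control Il2rb or Il7r in T cells were followed as a list. Of 10 measured, 2 rose and 0 fell (4 and 1 at an unadjusted p under 0.05), with a median of 0.02. Eomes, a T-box factor that activates Il2rb in memory CD8 T cells, read 9.59, 9.60 and 9.50 in knockout-labelled arrays, against 8.26, 8.27 and 8.34 in wild type arrays (log2 difference 1.27, SE 0.10, adjusted p = 9.86e-05). Its relative Tbx21, which encodes T-bet, rose by 0.93 (SE 0.12, adjusted p = 0.00218). Runx3, a factor of the CD8 lineage, differed by 0.32 (adjusted p = 0.151) and Tox, a factor of T cell development and exhaustion, by -0.31 (adjusted p = 0.159).

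Among the 8 other receptor chains of both families 0 passed in either direction (limma), with 0 higher and 1 lower at an unadjusted p under 0.05. Crlf2, the chain that joins Il7r in the receptor for thymic stromal lymphopoietin, differed by -0.37 (SE 0.13, adjusted p = 0.148), and 6 of the 8 lay below the background guide in both groups. Of the 10 ligands 1 rose and 0 fell (2 and 0 at an unadjusted p under 0.05). Il15, the cytokine bound by Il15ra and Il2rb, read 4.17, 3.85 and 3.93 in knockout-labelled arrays, against 3.1, 2.97 and 3.0 in wild type arrays (0.96, SE 0.12, adjusted p = 0.00141). The wild type values were below the guide, so the size of this rise is uncertain. Il10 itself read 3.35 ± 0.38 in knockout-labelled arrays, against 3.74 ± 0.16 in wild type arrays, below the guide in both.

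Downstream of the receptors, genes of the Janus kinases and STAT factors went both ways, with 1 of 7 measured higher and 1 lower. At an unadjusted p under 0.05 the counts were 1 higher and 2 lower. Jak3 is not among the 7, because no probe set with its single symbol was available. Jak2, a kinase used by many cytokine receptors outside these families, rose by 0.55 (SE 0.10, adjusted p = 0.0154), a call that ended without knockout replicate 2 or 3 (0.0748 and 0.0798). Stat5b, a STAT used by the interleukin-2, interleukin-7 and interleukin-15 receptors, was lower (-0.67, SE 0.10, limma adjusted p = 0.00572). It read 7.52, 7.45 and 7.33 in knockout-labelled arrays, against 8.05, 8.05 and 8.21 in wild type arrays. Stat5a differed by -0.37 (SE 0.12, limma adjusted p = 0.139) and did not pass. Stat3, the chief messenger of interleukin-10, differed by -0.14 (SE 0.11, adjusted p = 0.581), a gene named after its value was seen. Of 10 adaptors and PI3K subunits 1 rose, Irs2, a docking protein of the interleukin-4 receptor (0.84, SE 0.10, adjusted p = 0.00136), and 0 fell (1 and 1 at an unadjusted p under 0.05). Pik3cd, the catalytic PI3K subunit of lymphocytes, differed by -0.37 (adjusted p = 0.0706).

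Of 15 genes known to be induced through these receptors 4 rose and 0 fell (9 and 0 at an unadjusted p under 0.05, against 11.2% and 6.83% of all genes), with a median of 0.34. They were the feedback inhibitors Socs1 (0.95, SE 0.17) and Socs3 (0.57, SE 0.10), the survival kinase gene Pim1 (0.79, SE 0.12) and a probe set of Socs2 (2.36, SE 0.32), whose other probe set differed by 0.02. Their adjusted p lay between 0.00293 and 0.0112. A dim second probe set of Pim1 differed by 0.21. Socs3 also has a second probe set, whose own difference is not given here. After averaging over probe sets, the limma adjusted p was 0.0348 for Socs3, against 0.00783 before. It was 0.0199 for Pim1 and 0.00843 for Socs2, so these genes still passed. Socs1 did not pass without knockout replicate 1 or wild type replicate 3 (adjusted p = 0.0534 and 0.0511) or after another quantile normalization (0.0627). The mean level of Socs2 in wild type arrays was 2.71, below the background guide.

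**Figure D4:**
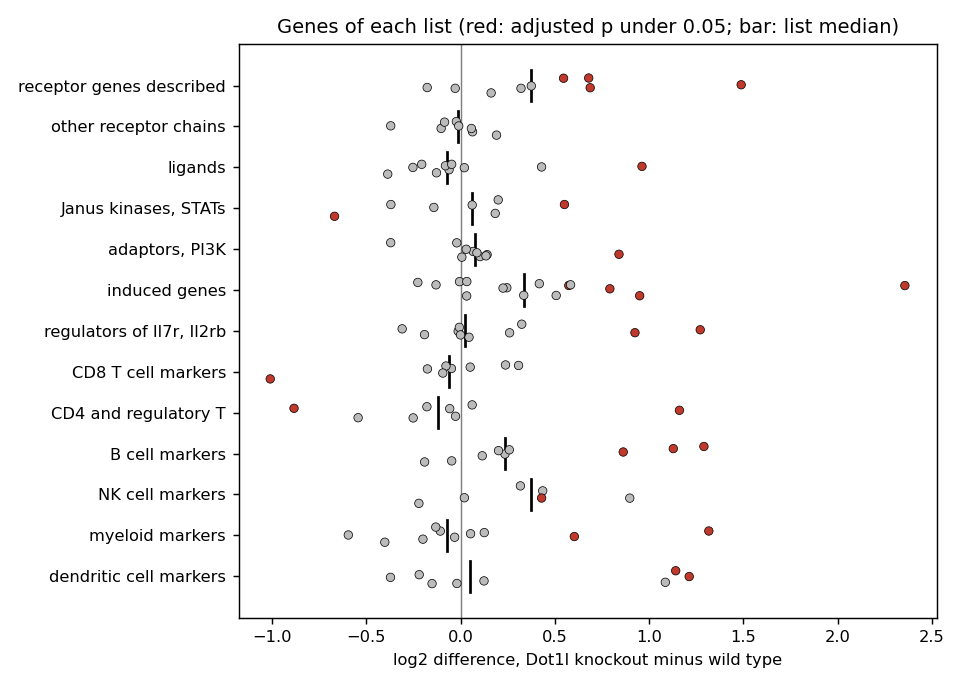
Log2 difference, Dot1l knockout-labelled minus wild type, of every measured gene of the receptor list (top row), the 6 other pathway lists and the 6 cell type marker lists. Each point is a gene, red where the adjusted p was under 0.05, and the bar is the list median, which is 0.38 for the 9 receptor genes and 0.34 for the induced genes.

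Genes like Il10ra over the 6 arrays were sought by Pearson correlation among 1817 other genes. These had a mean over all 6 arrays above the background guide and an SD over them of at least 0.3. A gene could thus enter through its level in 1 group or through a group difference. The most like were Cntln, which encodes centlein (r = 0.998), Sccpdh (r = 0.997) and the prolyl hydroxylase gene Egln3 (r = 0.996). These correlations describe 6 arrays that fall into 2 groups, and the groups do not overlap for any of the 3 genes. Their log2 differences were 1.39, 2.06 and 1.67. In wild type arrays Sccpdh read 3.26, 2.71 and 3.14, all under the guide of 3.83, so the size of its difference and the order of those arrays are uncertain. Wild type replicate 2 was the lowest wild type array for 4 of the 9 receptor genes.

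Over all genes 1220 passed, 954 higher and 266 lower, so that 78.2% of calls were higher. Median centring gave 755 higher and 342 lower (68.8% higher), and a further quantile normalization gave 625 and 470 (57.1% higher). Under both scalings Il10ra, Il10rb and Il2rb passed as higher, and Il2ra passed after median centring. The median level of the 16010 unnamed probe sets also differed, with 3.55 to 3.63 in knockout-labelled arrays, against 3.34 to 3.49 in wild type arrays. With that median as a covariate, added after results were known, none of the 9 receptor genes passed (limma, 3 at an unadjusted p under 0.05). The differences in that fit were 1.28 for Il10ra (adjusted p = 0.0591), 0.85 for Il10rb (0.0658), 0.57 for Il2rb (0.195) and 0.37 for Il2ra (0.513). Group and this median move together over 6 arrays, and their parts cannot be told apart.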

How the data were processed

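Per the submitters' processing notes, the authors deposited log2 expression values from RMA, run in R 3.1.1. Its settings, the annotation version and the build were not stated in the labels. RMA compresses differences of dim probe sets. Array medians of the deposited values lay between 3.69 and 3.78. Arrays give no count depth, and their number limits the precision.

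Of 41345 probe sets, 23521 named 1 gene symbol in the platform annotation, 1814 named several and 16010 were unnamed. Only the first kind was tested, with the probe set of highest mean for each of 22180 genes. Groups came from the sample titles. Knockout minus wild type was fitted with limma 3.58.1 (R 4.3.3, lmFit and eBayes, no covariate) and adjusted by Benjamini-Hochberg over all genes. The procedure was tested on simulated data. Summed marker levels add 2 raised to the log2 values.

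The receptor genes, the other lists (119 genes, 109 measured) and the alternatives were chosen with earlier results of these data known. Named genes are the 9 receptor genes, Dot1l, up to 4 genes of smallest p in each list, the 3 genes most like the leading receptor gene, and neighbours in the genome, which were added later. Cd4, Pax5, Klrd1 and Stat3 fall outside that rule and were chosen after their values were seen. Alternatives were a replicate block, leaving out each array, scalings, array weights, robust fitting with a trend, filters on level (25th or 50th percentile), other uses of probe sets, other thresholds and a covariate. Same-numbered arrays did not deviate together (correlations of deviations -0.074, -0.157 and -0.0741), so the numbers were not used as pairs.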

Additional observations from a re-analysis of the deposited data

How the results depend on the processing

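Il10ra and Il10rb passed in all 15 refits made at an adjusted p under 0.05, apart from the one with a covariate, with differences of 1.35 to 1.59 and 0.63 to 0.72. Several of these could not change the differences: the replicate block, the filters on level, robust fitting with a trend and the other uses of probe sets. They bear only on the adjusted p. Leaving out an array gave 2 to 4 receptor genes that passed and 615 to 1307 genes over all, with 745, 696 and 615 without knockout replicate 1, 2 and 3 and 780 without wild type replicate 3. At an adjusted p under 0.01 the counts were 2 receptor genes and 534 genes. With the median of unnamed probe sets as a covariate, chosen after seeing the data, they were 0 receptor genes (limma, 3 at an unadjusted p under 0.05), 3 pathway genes against 10 and 216 genes over all, and the cause was not tested. The replicate number as a block left 4 receptor genes and 912 genes over all, and the labels do not say whether the numbers pair the arrays. The difference of Il9r changed sign when arrays were left out, between -0.20 and 0.14, and was 0.56 with the covariate, where Il21r was -0.028. Il9r was removed by the filter at the 50th percentile of level. With 3 arrays a group and a level near background, Il9r and the wild type values of Il2ra limit what can be seen.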
